A study of Homo sapiens with 12 samples.

Results

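A set of 10 genes that make, degrade and sense sphingosine 1-phosphate (S1P) were followed in 2 human breast cancer cell lines exposed to a glucocorticoid. The set was chosen by gene symbol and holds the sphingosine kinases SPHK1 and SPHK2, the S1P phosphatases SGPP1 and SGPP2, the lipid phosphate phosphatase PPAP2B (current symbol PLPP3), the S1P lyase SGPL1, and the receptors S1PR1, S1PR2, S1PR3 and S1PR5. All 10 were found among the 51838 genes of the deposited table and all 10 passed the filter on low counts, as did 28141 genes in all. The set was proposed with earlier results of these data known, the large rise of SGPP2 in dexamethasone-treated MDA-MB-231 cells among them. That rise and its contrast with HCC70 are therefore described here without a test.

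S1P is a lipid signal made inside cells when a sphingosine kinase phosphorylates sphingosine, the backbone released from ceramide. It is removed in either of these ways: phosphatases return it to sphingosine, which can re-enter ceramide synthesis, or S1P lyase cleaves it irreversibly and so drains the sphingolipid pool. S1P that leaves the cell binds a family of G protein-coupled receptors, which couple to different G proteins and are known for their roles in cell migration, vascular integrity and lymphocyte traffic.

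Both lines are labelled as basal-like breast cancer. The culture medium was RPMI for HCC70 and DMEM for MDA-MB-231, each with serum, so that effects of line and of medium cannot be told apart. Each line received either 100 nM dexamethasone, a synthetic agonist of the glucocorticoid receptor, or the same volume of ethanol vehicle for 4 h. The 4 groups had 3 libraries each (12 in all), and between 106345287 and 123218973 counts fell on genes in a library. Nothing in the labels tells whether the replicates were cultured separately, so the p-values only reflect the spread among these libraries, which could be technical. Levels are CPM, counts scaled to a library of 1000000 with TMM factors. A change was called at a Benjamini-Hochberg adjusted p under 0.05 over all tested genes (edgeR quasi-likelihood test), and changes are given as fitted log2 fold changes with their standard error (SE).

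Transcripts known to rise through the glucocorticoid receptor rose in both lines: FKBP5 from 35.2 ± 1.1 to 218 ± 1.8 CPM in HCC70 and from 56.2 ± 5.5 to 1119 ± 47 CPM in MDA-MB-231 (SD, n = 3), TSC22D3 by 1.43 and 4.85 and PER1 by 2.87 and 3.89 on the log2 scale. The receptor gene NR3C1 stood at 56.6 ± 3.4 CPM in HCC70 and 125 ± 9.1 CPM in MDA-MB-231 under vehicle (SD, n = 3), and it fell in MDA-MB-231 (log2 change -0.50, SE 0.065, adjusted p = 0.000112). Of 10 basal and epithelial markers, 8 were higher in HCC70 with vehicle and 1 was lower, where 39.2% of all tested genes were higher and 40% lower. Of 5 luminal and hormone receptor markers 4 were tested, and all 4 were higher in HCC70 too. The basal keratin KRT5 averaged 2595 CPM in HCC70 and 0.804 CPM in MDA-MB-231 and the adherens junction gene CDH1 517 and 2.28 CPM, whereas the mesenchymal filament gene VIM averaged 145 and 2212 CPM. KRT5 and CDH1 were thus near 0 in the MDA-MB-231 libraries despite the shared label. Of 8 markers of other cell types 7 were in the table and 5 were tested, and 0 changed with dexamethasone in either line by edgeR, DESeq2 or limma voom, with 0 at an unadjusted p under 0.05.

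Dexamethasone moved 2 genes of the set, S1PR1 and PPAP2B, in opposite directions in the lines. In MDA-MB-231, S1PR1, S1PR3 and PPAP2B rose and S1PR2, S1PR5 and SPHK1 fell, while SGPP2 went from under 1 CPM to 13.7 ± 0.88 CPM (SD, n = 3). In HCC70, S1PR1 and PPAP2B fell, and SGPP1 and SGPP2 rose by smaller amounts. Leaving SGPP2 out, 6 of the other 9 genes were called in MDA-MB-231, 3 up and 3 down, where 14.6% of all tested genes were called, 6.65% up and 7.96% down. In HCC70, 4 of 10 were called, 2 up and 2 down, where 3.96% of all tested genes were, 2.55% up and 1.4% down. The difference between the responses (MDA-MB-231 minus HCC70) was called for 7 of these 9, 3 positive and 4 negative, against 12.1% of all tested genes, 5.09% positive and 6.96% negative. The 2 responses use different libraries, and their difference uses all of them. Since the set was chosen with earlier results of these data known, its counts beside the shares of all genes are a description. The median size of the log2 change, whatever its sign, was 0.83 over these 9 genes and 0.20 over all tested genes in MDA-MB-231, and 0.27 over the 10 genes and 0.16 over all in HCC70. The signed medians lay close to 0, at -0.05 in MDA-MB-231 and -0.06 in HCC70 (-0.01 over all tested genes in either line), since rises and falls were mixed.

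**Figure D1:**
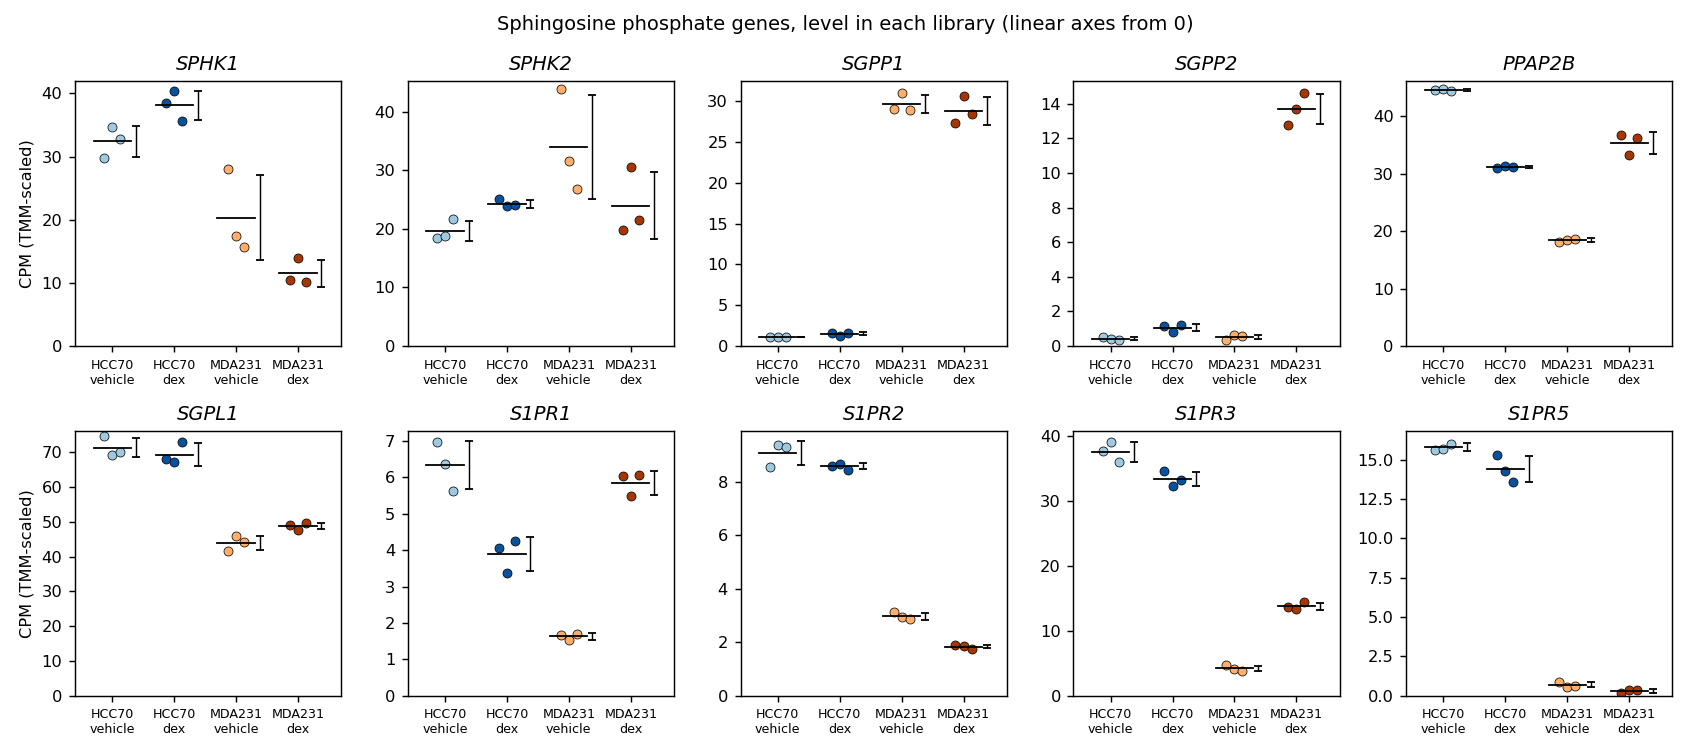
Level of each gene in TMM-scaled CPM (linear axes from 0) in HCC70 and MDA-MB-231 (MDA231) with vehicle or dexamethasone (dex); points are the 3 libraries of a group in the order of their replicate numbers, the long line is the mean and the bar beside it the SD. S1PR1 and PPAP2B move in opposite directions in the lines, SGPP2 is high only in dexamethasone-treated MDA-MB-231 (12.8 to 14.6 CPM), and the spread is widest for SPHK1 and SPHK2 in MDA-MB-231.

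The sequences just upstream of some of the genes are shown because the genes moved in different directions in the same cells. RefSeq (build GRCh38.p14, another build than the hg19 of the counts) gave start sites for 9 of the 10 genes, 15 windows in all, with no entry for SGPP1. The 250 bases before the start are printed 5′ to 3′ on the gene's strand for SGPP2 (chr2:222423738-222423987, plus strand), S1PR3 (chr9:88990613-88990862, plus strand), S1PR2 (chr19:10231332-10231581, minus strand) and S1PR5 (chr19:10517966-10518215, minus strand), none of which overlaps an annotated exon. Capitals mark matches to any motif searched, on either strand.
SGPP2: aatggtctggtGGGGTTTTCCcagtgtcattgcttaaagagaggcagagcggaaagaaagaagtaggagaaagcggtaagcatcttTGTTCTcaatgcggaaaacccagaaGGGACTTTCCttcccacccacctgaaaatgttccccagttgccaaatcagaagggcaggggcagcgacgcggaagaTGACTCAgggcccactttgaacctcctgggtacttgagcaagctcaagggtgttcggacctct
S1PR3: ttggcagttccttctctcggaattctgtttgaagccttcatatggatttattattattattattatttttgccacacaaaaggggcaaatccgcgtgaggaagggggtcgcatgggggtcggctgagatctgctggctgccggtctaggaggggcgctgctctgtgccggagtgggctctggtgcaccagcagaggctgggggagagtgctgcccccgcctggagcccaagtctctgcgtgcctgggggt
S1PR2: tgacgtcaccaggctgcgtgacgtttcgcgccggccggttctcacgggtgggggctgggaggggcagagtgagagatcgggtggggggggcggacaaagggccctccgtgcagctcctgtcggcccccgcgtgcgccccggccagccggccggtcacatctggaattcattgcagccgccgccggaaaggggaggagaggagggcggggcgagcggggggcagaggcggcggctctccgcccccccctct
S1PR5: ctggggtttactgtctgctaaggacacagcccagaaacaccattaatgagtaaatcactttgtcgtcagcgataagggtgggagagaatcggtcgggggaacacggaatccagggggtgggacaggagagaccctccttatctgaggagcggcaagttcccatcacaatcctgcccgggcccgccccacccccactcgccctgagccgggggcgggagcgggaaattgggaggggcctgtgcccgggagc
The motifs were the palindromic glucocorticoid receptor element GNACANNNTGTNC, the half-site AGAACA, the AP-1 site TGANTCA, the NF-kB site GGGNNTTTCC and the STAT site TTCNNNGAA. The SGPP2 window held GGGGTTTTCC and GGGACTTTCC (NF-kB, from -239 and from -139 relative to the start), TGTTCT (the half-site on the other strand, from -164) and TGACTCA (AP-1, from -63). An NF-kB match occurred in 1.73% of 35116 windows of the same length over all genes, a half-site in 12.4% and an AP-1 match in 6.57%. The printed receptor windows held none of the motifs. Over all 15 windows, the full receptor element was found in 0 (0.327% of all windows) and the STAT motif in 0 (6.57%). The half-site was found in 2 windows, of SGPP2 and SPHK2, the AP-1 site in 2, of SGPP2 and SPHK1, and the NF-kB site in 1. These are matches of letters, and no binding was measured.

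The kinases supply S1P. SPHK1, the cytosolic enzyme induced by growth factors, measured 29.7, 34.7 and 32.8 CPM in the vehicle libraries of HCC70 and 38.4, 40.3 and 35.7 CPM with dexamethasone. In MDA-MB-231 the values were 28, 17.4 and 15.6 CPM with vehicle and 10.4, 13.9 and 10.1 CPM with dexamethasone. The groups did not overlap in either line, but 1 MDA-MB-231 vehicle library lay far above the other 2. SPHK1 fell in MDA-MB-231 (log2 change -0.83, SE 0.20, adjusted p = 0.0219) and did not pass in HCC70 (0.24, SE 0.20, adjusted p = 0.559), and the difference between the responses was called (-1.06, SE 0.28, adjusted p = 0.0377). The fall was -0.41 (adjusted p = 0.000405) with an offset for GC content and length. Without MDA-MB-231 dexamethasone replicate 1 or 3 it lost its call (-0.76, adjusted p = 0.0914, and -0.74, adjusted p = 0.0876), as it did with the MDA-MB-231 libraries fitted alone (-0.83, adjusted p = 0.135) and with no filter on low counts (-0.82, adjusted p = 0.0561).

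SPHK2, the kinase also found in the nucleus and mitochondria, measured 18.5, 18.8 and 21.6 CPM in HCC70 with vehicle and 25.1, 23.8 and 24 CPM with dexamethasone, groups that did not overlap. MDA-MB-231 had 43.9, 31.5 and 26.7 CPM with vehicle and 19.8, 30.5 and 21.5 CPM with dexamethasone, and here they overlapped. Neither change passed in edgeR (0.31, SE 0.19, adjusted p = 0.42 in HCC70, and -0.51, SE 0.19, adjusted p = 0.101 in MDA-MB-231). The MDA-MB-231 value was called by DESeq2 (-0.49, adjusted p = 0.0251), without dexamethasone replicate 2 (-0.69, adjusted p = 0.0127), without vehicle replicate 3 (-0.65, adjusted p = 0.0323) and without vehicle replicate 1 and dexamethasone replicate 2 together (-0.47, adjusted p = 0.00222). Exons of SPHK2 overlap those of DBP, RPL18 and AC022154.1 on the opposite strand, and the libraries do not keep strand, so their reads cannot be told apart. The shared bases were 661 with DBP, 246 with RPL18 and 678 with AC022154.1. DBP, a circadian transcription factor, fell in MDA-MB-231 (log2 change -1.29, SE 0.13, adjusted p = 6.98e-06). Over its whole gene it averaged 3.27 ± 0.42 CPM with vehicle and 1.34 ± 0.24 CPM with dexamethasone (SD, n = 3). There RPL18 averaged 836 ± 48 and 872 ± 16 CPM, and SPHK2 34 ± 8.9 and 23.9 ± 5.7 CPM. The part of these genes in the SPHK2 counts was not tested.

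Both kinase transcripts are rich in G and C, and the libraries differed in how strongly their deviations followed GC content. The Spearman correlation between a gene's deviation and its GC content, over 26371 genes, was -0.37 to -0.0842 in the HCC70 vehicle libraries and 0.193 to 0.308 in those with dexamethasone. In MDA-MB-231 it was -0.119 to 0.477 with vehicle and -0.365 to 0.146 with dexamethasone. Vehicle replicate 1 (0.477) and dexamethasone replicate 2 (0.146) were the highest of their groups, and the same libraries were the highest for SPHK1 and SPHK2. With the offset for GC content and length, the HCC70 value of SPHK1 went from 0.24 to -0.04 (adjusted p = 0.831) and that of SPHK2 from 0.31 to 0.03 (adjusted p = 0.835), and the MDA-MB-231 value of SPHK2 from -0.51 to -0.10 (adjusted p = 0.202). When the HCC70 libraries were fitted alone, both kinases were called in that line (adjusted p = 0.0174 for SPHK1 and 0.00289 for SPHK2).

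The balance of the kinases also differed between the lines. In vehicle, SPHK1 was higher in HCC70 (log2 difference 0.67, SE 0.20, adjusted p = 0.00985) and SPHK2 higher in MDA-MB-231 (-0.79, SE 0.19, adjusted p = 0.00272). With the GC and length offset these differences were 0.32 for SPHK1 and -1.16 for SPHK2, both called, and with the replicate number as a block within each line the SPHK1 difference was not called (0.43, adjusted p = 0.178). Per kilobase of exon, SPHK1 made up 69.1 ± 2.1% of the summed kinase level in HCC70 and 44.6 ± 1.8% in MDA-MB-231 (SD, n = 3). The MDA-MB-231 group levels, 5.66 ± 1.5 CPM per kb for SPHK2 and 4.61 ± 1.5 for SPHK1, were not apart by more than their summed SD. The share depends on exon lengths, and the part of the genes overlapping SPHK2 in it was not tested.

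The phosphatases SGPP1 and SGPP2 return S1P to sphingosine at the endoplasmic reticulum. SGPP2 measured 0.529, 0.432 and 0.326 CPM in HCC70 with vehicle and 1.14, 0.827 and 1.21 CPM with dexamethasone. In MDA-MB-231 the values were 0.36, 0.633 and 0.561 CPM with vehicle and 12.8, 13.7 and 14.6 CPM with dexamethasone. Within each line the treated libraries were all higher than the vehicle libraries, and the treated MDA-MB-231 libraries stood far above all the others. SGPP2 rose 2.46-fold in HCC70 (SE 0.21 on the log2 scale, adjusted p = 0.00292). In MDA-MB-231 the fitted change was 4.72 (SE 0.19, 26.3-fold) and the difference between the responses 3.42 (SE 0.29), given as a description. Under vehicle the lines overlapped (log2 difference -0.27, SE 0.23, adjusted p = 0.293). Without MDA-MB-231 vehicle replicate 1 that difference was -0.50 (adjusted p = 0.0478).

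SGPP1, the broadly expressed relative, separated the lines rather than the treatments. It measured 1.1, 1.13 and 1.09 CPM in HCC70 with vehicle and 29.1, 31 and 29 CPM in MDA-MB-231, a 26.8-fold difference (log2 -4.74, SE 0.094, adjusted p = 7.96e-15). With dexamethasone, HCC70 had 1.63, 1.28 and 1.54 CPM, all above vehicle, and MDA-MB-231 had 27.3, 30.6 and 28.4 CPM, which overlapped its vehicle range. The rise in HCC70 passed narrowly (0.42, SE 0.10, adjusted p = 0.0307) and the MDA-MB-231 value did not pass (-0.05, SE 0.074, adjusted p = 0.722). The HCC70 call was lost without dexamethasone replicate 1 (adjusted p = 0.149) or 3 (0.122), and without vehicle replicate 1 (0.119), 2 (0.0845) or 3 (0.0863). It held with the GC and length offset (0.51, adjusted p = 0.0125).

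Per kilobase of exon, SGPP2 was 1.69 ± 0.42% of the summed SGPP1 and SGPP2 level in MDA-MB-231 with vehicle and 32.1 ± 1.5% with dexamethasone. In HCC70 the share was 27.6 ± 4.7% and 41.3 ± 2.4%, of a much lower sum (0.463 ± 0.033 and 0.765 ± 0.11 CPM per kb, against 9.13 ± 0.37 and 12.8 ± 0.65 in MDA-MB-231; SD, n = 3). SGPP1 thus remained the more abundant of the pair in every group.

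PPAP2B encodes a membrane enzyme that dephosphorylates S1P and lysophosphatidic acid outside the cell. It measured 44.5, 44.8 and 44.4 CPM in HCC70 with vehicle and 31, 31.3 and 31.2 CPM with dexamethasone. In MDA-MB-231 it measured 18.1, 18.4 and 18.7 CPM with vehicle and 36.8, 33.3 and 36.2 CPM with dexamethasone. No groups overlapped, and the order of the lines differed between treatments: HCC70 was above MDA-MB-231 in vehicle and below it with dexamethasone. The fall in HCC70 was 1.43-fold (log2 -0.52, SE 0.053, adjusted p = 5.31e-05) and the rise in MDA-MB-231 1.92-fold (log2 0.94, SE 0.054, adjusted p = 2.46e-08). The responses differed by 1.46 (SE 0.076, adjusted p = 3.51e-08). Exons of PPAP2B share 576 bases with the annotated locus AC119674.2 on the same strand.

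SGPL1, the lyase that ends the pathway, was not called in either line. It measured 74.6, 69.4 and 70.2 CPM in HCC70 with vehicle and 68, 67.2 and 73.1 CPM with dexamethasone, overlapping ranges. In MDA-MB-231 it measured 41.7, 45.9 and 44.2 CPM with vehicle and 49, 47.8 and 49.6 CPM with dexamethasone, ranges that did not overlap. Neither change passed (-0.04, SE 0.057, adjusted p = 0.744, and 0.15, SE 0.058, adjusted p = 0.0949). In vehicle SGPL1 was higher in HCC70 (log2 difference 0.70, SE 0.058, adjusted p = 4.4e-08).

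**Figure D2:**
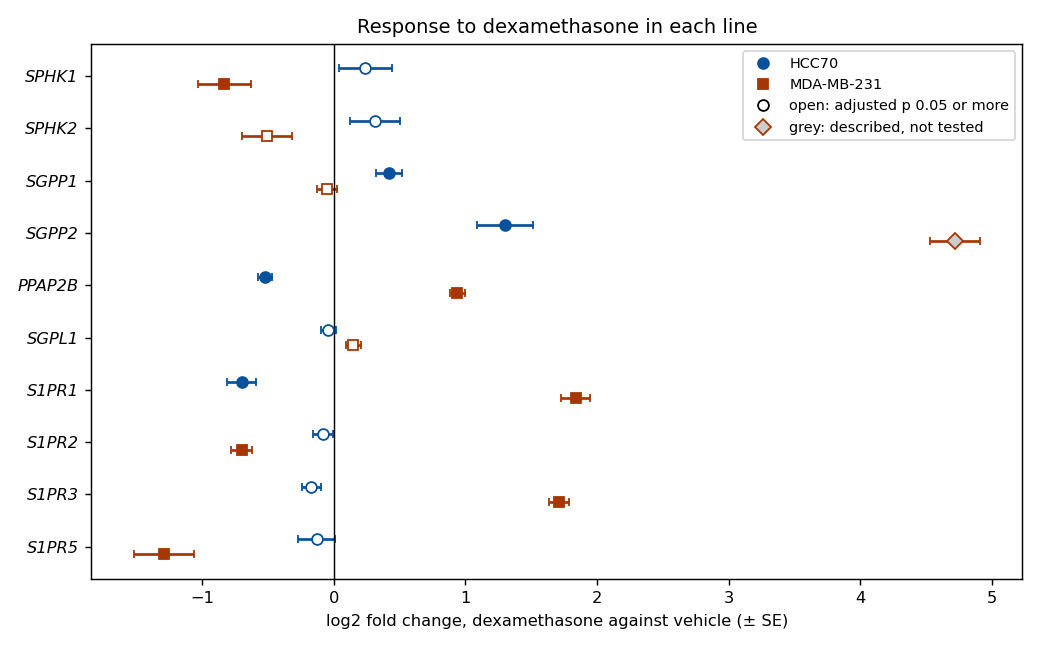
Fitted log2 fold change of each gene, dexamethasone against vehicle, in HCC70 (circles) and MDA-MB-231 (squares), with bars of 1 SE; filled symbols passed the adjusted threshold, open ones did not, and the grey diamond (SGPP2 in MDA-MB-231) is a description with no test. S1PR1 (-0.70 and 1.84) and PPAP2B (-0.52 and 0.94) have filled symbols on opposite sides of 0.

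Among the receptors, S1PR1, which couples to Gi and is the main S1P receptor of lymphocytes and endothelium, showed the widest divergence between the lines of those tested. It measured 6.98, 6.38 and 5.64 CPM in HCC70 with vehicle and 4.05, 3.37 and 4.25 CPM with dexamethasone. In MDA-MB-231 it measured 1.66, 1.53 and 1.71 CPM with vehicle and 6.03, 5.48 and 6.07 CPM with dexamethasone. The groups did not overlap within either line, and with dexamethasone every MDA-MB-231 library was above every HCC70 library. S1PR1 fell 1.63-fold in HCC70 (log2 -0.70, SE 0.11, adjusted p = 0.00161) and rose 3.58-fold in MDA-MB-231 (log2 1.84, SE 0.11, adjusted p = 5.85e-08). The difference between the responses was 2.55 (SE 0.16, adjusted p = 1.86e-07).

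S1PR3, a receptor that couples to several G protein classes, measured 37.6, 39 and 35.9 CPM in HCC70 with vehicle and 34.5, 32.3 and 33.2 CPM with dexamethasone. In MDA-MB-231 it measured 4.69, 4.1 and 3.86 CPM with vehicle and 13.7, 13.4 and 14.4 CPM with dexamethasone. The treated libraries lay apart from the vehicle libraries in both lines, below them in HCC70 and above them in MDA-MB-231. S1PR3 rose 3.28-fold in MDA-MB-231 (log2 1.71, SE 0.075, adjusted p = 1.7e-09), while the HCC70 value did not pass (-0.17, SE 0.070, adjusted p = 0.218). With the HCC70 libraries fitted alone, the same value was called (adjusted p = 0.0276). The responses differed by 1.88 (SE 0.10, adjusted p = 5.27e-08), and S1PR3 remained lower in treated MDA-MB-231 than in HCC70 in every library.

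S1PR2, known for restraining cell migration, went the other way in MDA-MB-231. It measured 3.13, 2.95 and 2.87 CPM with vehicle and 1.88, 1.87 and 1.76 CPM with dexamethasone, and fell 1.63-fold (log2 -0.70, SE 0.082, adjusted p = 3.81e-05). In HCC70 the ranges overlapped, 8.56 to 9.36 CPM with vehicle and 8.45 to 8.68 CPM with dexamethasone (-0.08, SE 0.074, adjusted p = 0.588). The responses differed by -0.62 (SE 0.11, adjusted p = 0.0029). Exons of S1PR2 share 83 bases with those of DNMT1 on the same strand, whose level was 393 ± 36 and 345 ± 15 CPM in MDA-MB-231 with vehicle and dexamethasone (SD, n = 3; log2 change -0.19, adjusted p = 0.0777), and its part in the S1PR2 counts was not tested.

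S1PR5, best known from natural killer cells and oligodendrocytes, measured 15.6, 15.7 and 16 CPM in HCC70 with vehicle and 15.3, 14.3 and 13.6 CPM with dexamethasone. In MDA-MB-231 it was near the low end of the set, at 0.895, 0.586 and 0.631 CPM with vehicle and 0.161, 0.347 and 0.356 CPM with dexamethasone, the lowest value resting on 21 counts. It fell in MDA-MB-231 (log2 -1.29, SE 0.23, adjusted p = 0.00178) and did not pass in HCC70 (-0.13, SE 0.14, adjusted p = 0.645), with a difference of -1.16 (SE 0.27, adjusted p = 0.0165). S1PR4, the lymphoid receptor outside the set, was close to absent, at 0.0415 ± 0.05 and 0.27 ± 0.022 CPM in HCC70 and MDA-MB-231 vehicle libraries (SD, n = 3). Its responses did not pass in edgeR (adjusted p = 0.959 in HCC70 and 0.1 in MDA-MB-231), and the MDA-MB-231 value, -1.32 with all treated libraries below the vehicle libraries, was called in 3 of 24 alternatives, limma voom among them.

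S1PR2 and S1PR5 lie on chromosome 19 with 12 protein-coding genes between them, all tested. In MDA-MB-231, 2 of these 12 fell, the adhesion genes ICAM1 (log2 -0.76, SE 0.075, adjusted p = 7.87e-06) and ICAM3 (-0.31, SE 0.086, adjusted p = 0.0292), and 0 rose, where 7.96% of all tested genes fell and 6.65% rose. At an unadjusted p under 0.05 (edgeR), 6 of the 12 passed in MDA-MB-231, all lower with dexamethasone. The share of all tested genes at that limit was not counted, but it is no lower than the 14.6% called. In HCC70, 0 of the 12 were called by edgeR, where 3.96% of all tested genes were. There 2 had an unadjusted p under 0.05, ICAM1 lower (-0.18) and ICAM5 higher (0.70). This neighbourhood was chosen after the values of both receptors had been seen, so its counts are a description only.

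The makeup of the receptor transcripts differed between lines and, in MDA-MB-231, between treatments. Per kilobase of exon, S1PR5 made up 46.5 ± 1% of the summed level of the 4 receptors in HCC70 with vehicle and 48 ± 1.3% with dexamethasone. In MDA-MB-231 with vehicle S1PR2 led with 48.5 ± 1.8%, followed by S1PR1 with 18.5 ± 1.4%, S1PR3 with 18.3 ± 0.7% and S1PR5 with 14.7 ± 2.3%. With dexamethasone S1PR1 led with 40.8 ± 1.5% and S1PR3 followed with 37.1 ± 0.36%, while S1PR2 had 18.4 ± 1.2% and S1PR5 3.74 ± 1.4% (SD, n = 3). The summed level was 1.69 ± 0.13 and 2.75 ± 0.082 CPM per kb in MDA-MB-231 with vehicle and dexamethasone, and 12.1 ± 0.16 and 10.7 ± 0.37 in HCC70. With the longest coding transcript as the length, which gives S1PR3 8505 bases in place of 13578, S1PR2 still led in MDA-MB-231 with vehicle (37.7 ± 1.4%), S1PR1 with dexamethasone (47.2 ± 1.4%) and S1PR5 in HCC70 (42.6 ± 1.2% and 44.7 ± 1.4%).

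**Figure D3:**
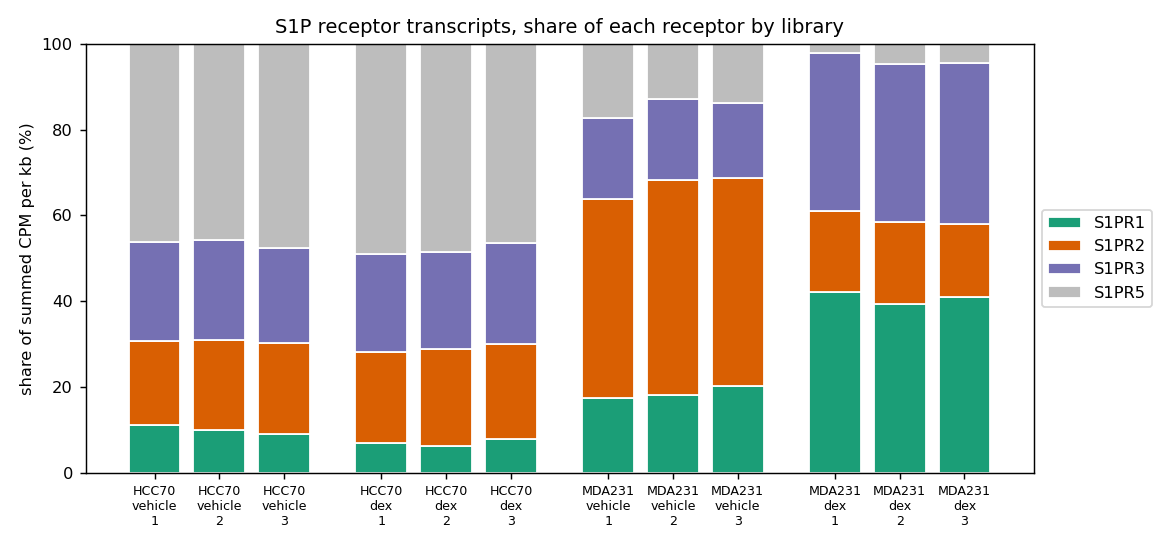
Share of each receptor in the summed level of S1PR1, S1PR2, S1PR3 and S1PR5, in percent of CPM per kilobase of exon, for each of the 12 libraries (1 bar each, stacked to 100). S1PR5 fills the largest block in all HCC70 libraries, S1PR2 in the MDA-MB-231 vehicle libraries, and S1PR1 in the MDA-MB-231 dexamethasone libraries.

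In vehicle, 9 of the 10 genes differed between the lines, where 79.2% of all tested genes did: 7 were higher in HCC70 (39.2% of all tested genes) and 2, SGPP1 and SPHK2, in MDA-MB-231 (40%). The median log2 difference (HCC70 minus MDA-MB-231) was 0.99 over the 10 genes and -0.03 over all tested genes. All 4 receptors were higher in HCC70, by 3.04-fold for S1PR2 (adjusted p = 1.1e-10), 3.88-fold for S1PR1 (9.22e-10), 8.89-fold for S1PR3 (7.35e-14) and 22.4-fold for S1PR5 (1.7e-11). PPAP2B was 2.42-fold higher there (adjusted p = 2.39e-11). This comparison uses the same vehicle libraries as the dexamethasone comparisons. In bulk RNA, fewer cells expressing a gene and less RNA per cell cannot be told apart.

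Ordered by CPM per kilobase, SGPL1 was the highest in HCC70 with vehicle (9.54 ± 0.37), followed by PPAP2B (8.43 ± 0.04) and SPHK1 (7.33 ± 0.58), and SGPP2 was the lowest (0.129 ± 0.03). With dexamethasone the first places went to SGPL1 (9.27 ± 0.43) and SPHK1 (8.63 ± 0.52), which did not differ beyond their spread, and S1PR3 (2.46 ± 0.083) and S1PR2 (2.35 ± 0.033) did not either. In MDA-MB-231 with vehicle SGPP1 was the highest (8.97 ± 0.34); SGPL1, SPHK2, SPHK1 and PPAP2B followed (5.87 to 3.48), none apart from its neighbour in that order by more than their summed SD. The receptors S1PR1, S1PR3 and S1PR5 and then SGPP2 closed that order (0.313 to 0.155) and were likewise not apart. With dexamethasone SGPP1 stayed first (8.68 ± 0.51), SGPP2 moved to the fourth place (4.1 ± 0.26) and S1PR5 was last (0.103 ± 0.039). SGPP2 was not above SPHK2 (3.99 ± 0.95), the next gene, by more than their summed SD. Likewise not apart were PPAP2B and SGPL1, SPHK2 and SPHK1, and S1PR1 and S1PR3. These values and all others between genes depend on exon lengths from GENCODE, another build than that of the counts (SD, n = 3).

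**Figure D4:**
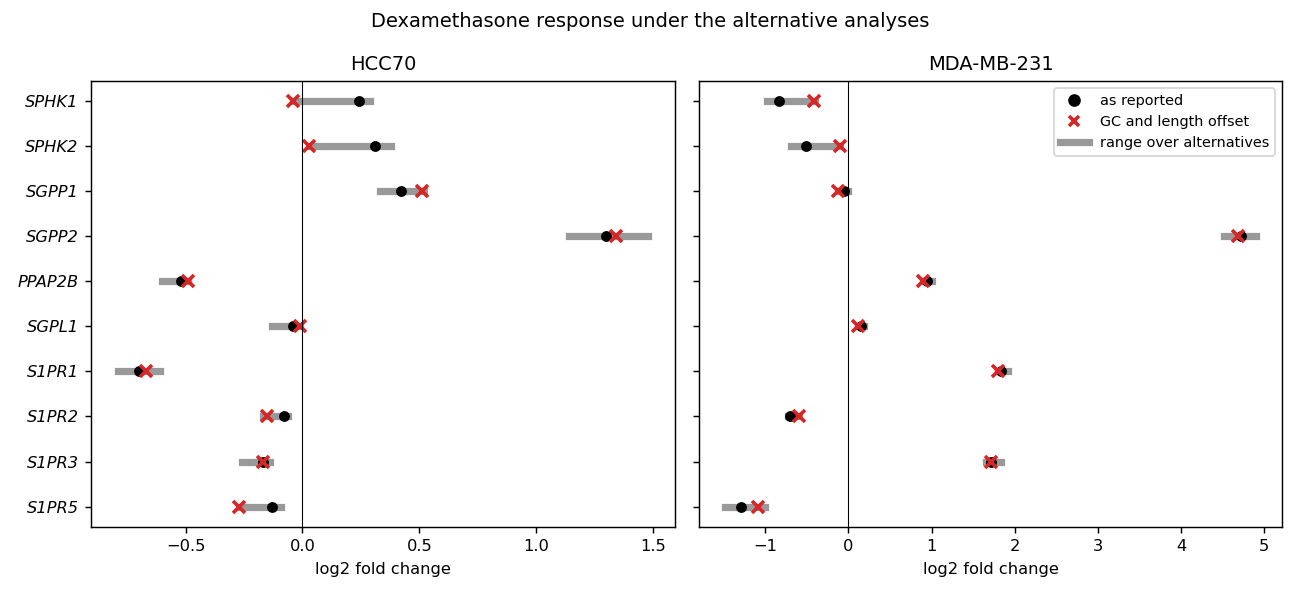
Fitted log2 fold change of each gene under dexamethasone in HCC70 and MDA-MB-231: black points are the values given above, red crosses those with an offset for GC content and length, and grey bars the range over 26 alternative analyses, which change the processing or leave libraries out. In MDA-MB-231 the bar of every gene stays on one side of 0, those of SGPP1, SPHK2 and SGPL1, which were not called, included. The values of SPHK1 and SPHK2 are moved most by the offset.

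Of the alternatives tried, none ended the calls of S1PR1, S1PR2, S1PR3, S1PR5 and PPAP2B in MDA-MB-231 or those of S1PR1, PPAP2B and SGPP2 in HCC70 (26 of 26 for each). Over them the MDA-MB-231 change ran from 1.80 to 1.92 for S1PR1, from 1.65 to 1.84 for S1PR3, from 0.90 to 1.01 for PPAP2B and from -0.73 to -0.60 for S1PR2. The range of S1PR5 there was wider than these. Its change reached -1.48, was -1.09 with the GC and length offset, and had an adjusted p of up to 0.0441. In HCC70 S1PR1 ran from -0.79 to -0.61, PPAP2B from -0.60 to -0.49 and SGPP2 from 1.14 to 1.48.

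The other genes around S1P were followed as 10 lists, 69 genes with 67 tested. In HCC70 1 rose, CERK, the ceramide kinase (log2 change 0.28, SE 0.048, adjusted p = 0.00432), and 1 fell, the ceramide synthase CERS5 (-0.25, SE 0.064, adjusted p = 0.0464), against 2.55% and 1.4% of all tested genes. The CERS5 call was lost in 12 of 26 alternatives, each HCC70 library left out among them (adjusted p up to 0.212), and the CERK call in 2 of 26, with library size alone and with the block within each line (adjusted p up to 0.092). In MDA-MB-231 8 rose and 12 fell, where 6.65% of all tested genes rose and 7.96% fell. Beside the set's own phosphatase, its relatives PPAP2A and PPAP2C moved in opposite ways there (0.25, SE 0.065, adjusted p = 0.0204, and -0.34, SE 0.083, adjusted p = 0.014).

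Among the exporters and carriers of S1P, 4 of 6 fell in MDA-MB-231 (7.96% of all tested genes) and 0 rose, with a median log2 change of -0.39 against -0.01 over all tested genes. In HCC70 0 of 6 were called by edgeR, DESeq2 or limma voom, and at an unadjusted p under 0.05 3 were higher and 1 lower. SPNS2, the S1P exporter of endothelium, measured 47.9, 37.9 and 37.2 CPM in MDA-MB-231 with vehicle and 23.3, 28.2 and 22.5 CPM with dexamethasone, and it fell (log2 -0.73, SE 0.11, adjusted p = 0.000391). Its HCC70 libraries went from 44.7, 44.8 and 49.7 to 62.8, 54.9 and 55.6 CPM, which did not pass (0.32, SE 0.11, adjusted p = 0.136). The difference between the responses was called (-1.05, SE 0.15, adjusted p = 0.000679). The lipid transporters ABCG1 (-1.55, SE 0.19, adjusted p = 6.19e-05) and ABCC1 (-0.53, SE 0.095, adjusted p = 0.00175) fell in MDA-MB-231 too. So did ABCA1 (-0.26, SE 0.073, adjusted p = 0.0318), whose call was lost in 10 of 26 alternatives. For SPNS2 and ABCC1, as for SPHK1, vehicle replicate 1 and dexamethasone replicate 2 were the highest of their groups.

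Upstream of S1P, 13 genes of serine palmitoyltransferase and ceramide synthesis were tested, of which 3 rose and 1 fell in MDA-MB-231 (6.65% and 7.96% of all tested genes). The synthase CERS6 rose (0.54, SE 0.081, adjusted p = 0.000345), and SPTLC3, a subunit of serine palmitoyltransferase, fell (-0.56, SE 0.092, adjusted p = 0.000876). Of 7 sphingomyelin enzymes 1 rose, the synthase SGMS1 (0.45, SE 0.058, adjusted p = 0.000101), and 1 fell, SMPD3 (adjusted p = 0.0405, lost in 15 of 26 alternatives). Of 4 ceramidases and of 3 ORMDL regulators, 0 were called by edgeR in either line; in MDA-MB-231 1 of each list had an unadjusted p under 0.05 and was called by DESeq2. Of 7 genes for lysophosphatidic acid receptors and autotaxin, 1 fell in MDA-MB-231, LPAR5 (adjusted p = 0.0404, lost in 17 of 26 alternatives). Of 12 G protein subunits and receptor desensitizers, 2 rose and 4 fell in MDA-MB-231 (6.65% and 7.96% of all tested genes), and in HCC70 0 were called by edgeR, DESeq2 or limma voom and 0 had an unadjusted p under 0.05.

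Patterns over the 12 libraries were compared with that of SGPP2 by the root mean square difference of centred log2 CPM. Only the 14345 tested genes above a floor on mean log2 CPM, members left out, were compared, so genes at lower levels could not be named. The most alike were FKBP5 (0.59), the apoptosis inhibitor BIRC3 (0.60), the metallothionein MT1E (0.70), the pyruvate dehydrogenase kinase PDK4 (0.80) and C5orf62 (0.87). BIRC3 averaged 7.72 and 32.9 CPM in HCC70 with vehicle and dexamethasone and 22 and 227 CPM in MDA-MB-231. PDK4 averaged 0.906 and 3.55, then 3.05 and 116 CPM. MT1E and C5orf62 shared only the MDA-MB-231 rise, with HCC70 averages of 9.4 and 10.1 CPM for MT1E and of 3.23 and 2.7 CPM for C5orf62.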

How the data were processed

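PolyA RNA of 12 libraries was measured by transposase-based, non-stranded sequencing with paired-end reads, per the labels' protocols. The deposited file holds whole-number read counts per gene, not scaled by the authors. The submitters' processing notes name hg19, TopHat 1.4.1, Cufflinks 1.3.0 and bedtools without their role; the counting step is not given in the sources used here. All 12 columns matched a library by name.

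Counts were filtered (filterByExpr, minimum count 10) and TMM-scaled, and edgeR 4.0.16 (R 4.3.3) fitted group means to the 12 libraries jointly by quasi-likelihood (robust, 8 residual degrees of freedom). Tests were two-sided, with Benjamini-Hochberg adjustment over 28141 genes. Group levels are mean CPM with the SD of 3 libraries. The limit that a count of 0 allows, 3 counts over a group, is 0.00782 to 0.00898 CPM and covers counting error only. The script was tested on simulated data. GC content, length and exon overlap came from GENCODE (another build; GC known for 93.7% of tested genes), and windows and start sites from RefSeq.

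The members and lists were chosen with earlier results of these data known. Named genes were all members, S1PR4, check genes of dexamethasone action, up to 3 passing genes per list and dexamethasone contrast (up to 2 otherwise) and the 5 genes most like SGPP2; some that the rule takes are not reported. Alternatives were other scalings, filters and tools (DESeq2 1.42.0, limma 3.58.1), the replicate number as a block, each contrast alone, an offset for GC content and length, each library left out, and MDA-MB-231 vehicle replicate 1 and dexamethasone replicate 2, known to stand apart from earlier results, left out together; the longest transcript as length was chosen after seeing the data.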

Additional observations from a re-analysis of the deposited data

Results flagged for a closer look

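For 7 of the 9 genes with a test, the responses of MDA-MB-231 and HCC70 to dexamethasone differed by a test of the difference itself (edgeR, MDA-MB-231 minus HCC70, log2 scale). Of all tested genes 12.1% did, 5.09% positive and 6.96% negative. S1PR1 differed by 2.55 (adjusted p = 1.86e-07), S1PR3 by 1.88 (adjusted p = 5.27e-08) and PPAP2B by 1.46 (adjusted p = 3.51e-08), each with the larger value in MDA-MB-231. S1PR2 differed by -0.62 (adjusted p = 0.0029) and S1PR5 by -1.16 (adjusted p = 0.0165). SPHK1 differed by -1.06 (adjusted p = 0.0377) and SGPP1 by -0.47 (adjusted p = 0.0282). The values of S1PR1, S1PR2, S1PR3 and PPAP2B were called in all 25 alternatives that could be fitted, that of S1PR5 in 24, that of SPHK1 in 14 and that of SGPP1 in 13. No outlier test was run on single libraries, since each group holds 3.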

How the results depend on the processing

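Over all alternatives, 968 of 1030 values of the 10 genes kept their direction and their side of the threshold, 39 lost a call, 20 gained one and 3 changed sign. The 1030 include the SGPP2 values that are only described here. Of 1179 values of the pathway genes that the naming rule takes, 154 lost a call. SPHK1 in HCC70 went from 0.24 to -0.04 with the GC and length offset and to -0.03 with that offset and the replicate block, neither called. SGPP2 between the lines in vehicle went from -0.27 to 0.14 with the replicate number as a block within each line, and was not called in either. The number of the 10 genes called in HCC70 was 4, where 1114 of all 28141 tested genes were called. It became 7 with the HCC70 libraries alone, where 4828 of all 25309 were called. It was also 7 without MDA-MB-231 vehicle replicate 1 and dexamethasone replicate 2, where 3867 of all 28564 were called. The causes were not tested. Of the 9 genes with a test, the responses differed for 7. The block within each line ended the calls of SGPP1, SPHK1 and S1PR5 for this difference (adjusted p = 0.0695, 0.076 and 0.0984). The counts with SGPP2 included, 8 without and 5 with that block, are not counts of tests, since SGPP2 is only described here. That block also ended the calls of SGPP1 in HCC70 (adjusted p = 0.0908) and SPHK1 in MDA-MB-231 (adjusted p = 0.0506). Correlations of same-numbered deviations were -0.0342, 0.00896 and -0.017 in HCC70 and -0.158, -0.101 and 0.0934 in MDA-MB-231. The highest in MDA-MB-231 was 0.27, between vehicle replicate 1 and dexamethasone replicate 2. Deviations were taken from means of 3 libraries and followed GC content, so they cannot decide whether the replicate numbers pair the libraries. The difference of responses could not be fitted within 1 contrast alone.

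Over all tested genes, 1114 were called in HCC70, 4110 in MDA-MB-231, 3391 for the difference and 22294 between the lines in vehicle. The HCC70 count was 4828 with that line alone, 3867 without the 2 MDA-MB-231 libraries named above, 1839 with the GC and length offset, 1686 with DESeq2, 695 with the replicate block and 481 with the block within each line. The MDA-MB-231 count was 2116 with that line alone and 2551 with the block within each line, and that of the difference 6206 without the 2 libraries and 2059 and 1480 with the blocks. With a stricter filter, and so fewer genes tested, 11980 differed in vehicle. With single libraries left out the HCC70 count ran from 510 (without its vehicle replicate 1) to 1775 (without MDA-MB-231 vehicle replicate 1), that of MDA-MB-231 from 2424 (without its dexamethasone replicate 1) to 6452 (without its replicate 2), and that of the difference from 1614 (without HCC70 vehicle replicate 1) to 6259 (without MDA-MB-231 dexamethasone replicate 2). With library size alone the calls were 552 up and 762 down in HCC70, in place of 719 and 395, and 2498 positive and 1766 negative for the difference, in place of 1431 and 1960. The lowest counts, 21 for S1PR5 and 38 for SGPP2, limit the precision of these genes at this depth.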

Other observations

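Several other lipid genes differed widely between the lines in vehicle. LPAR1, a lysophosphatidic acid receptor, had 0 counts in the HCC70 vehicle libraries and 67.8 CPM in MDA-MB-231, at least 7843-fold higher against a limit of 3 counts over the group. SPTSSB, a small subunit of serine palmitoyltransferase, averaged 70.2 CPM in HCC70 and 0.0104 CPM (4 counts) in MDA-MB-231. ABCA1, a lipid exporter, was 17.1-fold higher in MDA-MB-231 (adjusted p = 1.38e-14, edgeR), and the lysosomal galactosylceramidase GALC was 44.1-fold higher there (adjusted p = 5.13e-13). Of 67 tested genes of the lists, 23 were higher in HCC70 and 34 in MDA-MB-231, where 79.2% of all tested genes differed, 39.2% and 40% in these directions.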
